A study of Caenorhabditis elegans with 35 samples.

Results

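Gene expression was compared between F5 and F4 Caenorhabditis elegans that were wild type at the wdr-5 gene but had mutant ancestors, the lineage labelled +/+ from wdr-5. The members were chosen by generation and genotype labels alone: 5 arrays of F5 +/+ from wdr-5 and 6 arrays of F4 +/+ from wdr-5, which are 11 of the 35 arrays in the series. The other arrays were of wdr-5/wdr-5 mutants and of wild-type animals with wild-type ancestors (+/+ from +/+), with 6 arrays in each generation of each lineage. All groups were labelled as whole worm lysates of the third larval stage (L3), grown at the same temperature and washed in M9 buffer before RNA extraction. F5 and F4 animals were each collected for 2 birth days, with 2 F5 and 3 F4 arrays on birth day 1 and 3 F5 and 3 F4 arrays on birth day 2. Generation was therefore also a harvest, and what the generation did and what the harvest did cannot be told apart. The labels do not say whether arrays of a group came from separate cultures, so the tests measure the spread between these preparations, which may be technical.

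The WD-repeat protein made from wdr-5.1 is part of complexes methylating lysine 4 of histone H3 (H3K4), a mark of transcribed chromatin. Loss of H3K4 methylation factors lengthens life in this animal, and the study's design follows wild-type descendants of mutants to later generations. Worm larvae pass through moults at which a new cuticle is made, each stage with its own collagens. The hermaphrodite germ line first makes sperm and then oocytes, and the adult intestine makes yolk proteins (vitellogenins) for them.

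Values are log2 intensities, and single arrays are given in the order of birth day 1 (F5 replicates 1 and 2, F4 replicates 1 to 3) and then birth day 2 (replicates 4 to 6 of each generation). Within a generation and birth day, the correlation between arrays over all probe sets was r = 0.995 to 0.997. The first principal component of the 11 arrays held 74.7% of the variance and separated the birth days, whose values were taken to be normalized separately. The second held 15.3% and separated the generations, with scores of 10.6 to 34.6 on F5 arrays and of -25.15 to -12.17 on F4 arrays. Whole animals were measured, so fewer cells of a type and less RNA per cell cannot be told apart.

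Transcripts across the array differed between the generations. Of 20806 probe sets, 3646 (17.5%) were higher and 1607 (7.72%) lower in F5 than in F4 at an adjusted p under 0.05 (limma with birth day as a term, Benjamini-Hochberg over all probe sets). Counted by gene, 2892 (16.8%) of 17236 rose and 1393 (8.08%) fell. The counts of each gene list below are to be read against these shares of all genes. Most rises were small and the large changes were falls, since only 27 probe sets rose by more than 2-fold and 85.2% of the changes past 2-fold were falls. On both birth days together, all F5 arrays lay above all F4 arrays for 1916 genes (11.1%) and below them for 942 (5.47%). The median moved with the birth day and the scale. The median difference over all probe sets was 0.06, with 0.12 on birth day 1 and 0.01 on birth day 2. After each array was centred on its own median within its birth day, 2389 probe sets were higher and 2175 lower, so that 52.3% of calls were rises in place of 69.4%. Quantile normalization within a birth day gave 54.1%, and centring on 680 chemoreceptor genes gave 48.7% (1664 higher and 1751 lower). The median difference of the vitellogenins was -1.80 on the deposited scale and -1.86 to -1.85 on the others, and that of ribosomal protein genes was 0.11 on the deposited scale and 0.01 to 0.06 on the others.

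The wdr-5.1 transcript itself did not pass the test. Its level was 8.38, 8.37, 8.67, 8.63 and 8.78 on the F5 arrays, against 8.65, 8.39, 8.46, 8.58, 8.77 and 8.67 on the F4 arrays. The F5 arrays lay just under the F4 arrays on birth day 1 and among them on birth day 2, and the difference was -0.05 ± 0.07 (log2, SE, adjusted p = 0.64, limma). The paralog wdr-5.2 differed by 0.11 ± 0.08 (adjusted p = 0.36, limma). The third paralog, wdr-5.3, fell by 0.41 on the log2 scale (SE 0.11, adjusted p = 0.015, limma), and without F5 replicate 2 its adjusted p was 0.063. Of 18 genes of the wdr-5 family and of H3K4 methylation, 2 rose (11.1%, against 16.8% of all genes) and 1 fell (5.56%, against 8.08%), with a median difference of 0.04. The risers were set-30, a SET-domain methyltransferase gene, at 0.37 ± 0.08 (adjusted p = 0.0027, limma), and utx-1, an H3K27 demethylase gene, at 0.22 ± 0.07 (adjusted p = 0.039, limma). The call of utx-1 was lost under the other scales and without most single arrays, for example at an adjusted p of 0.12 without F5 replicate 1.

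**Figure D1:**
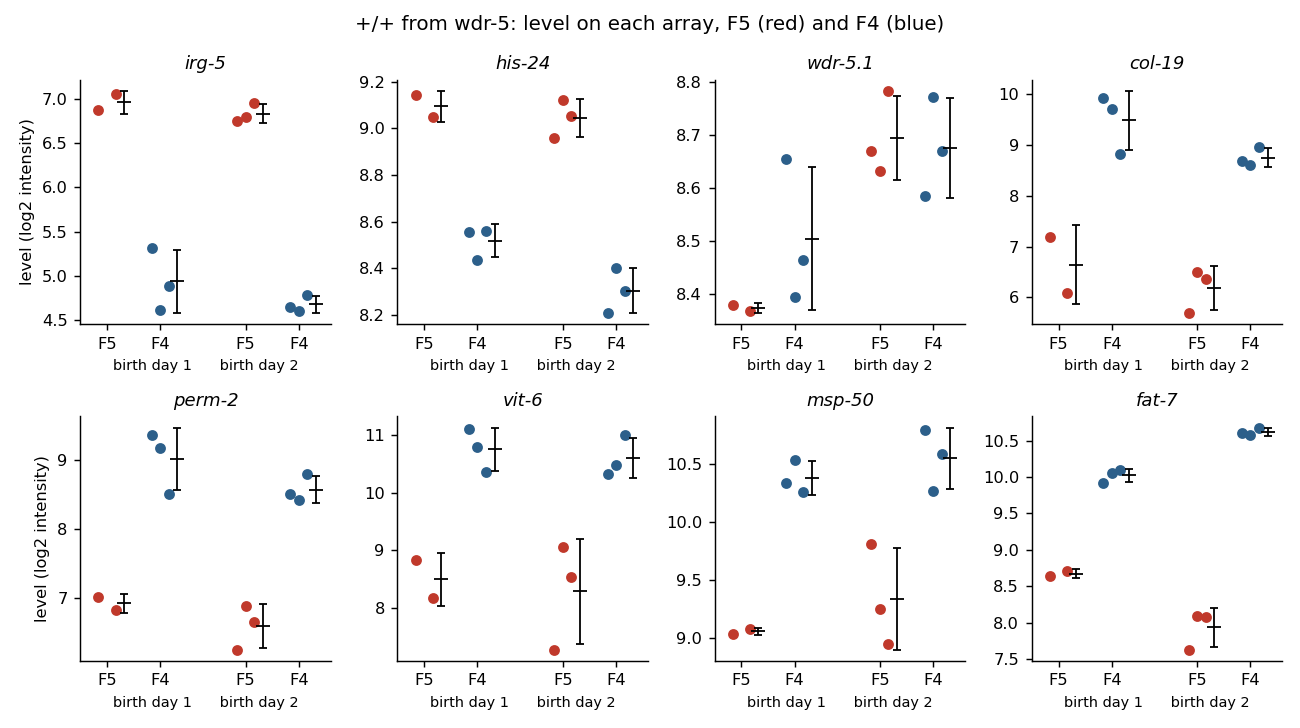
Log2 level of 8 genes on each array of +/+ from wdr-5, by generation (F5 red, F4 blue) and birth day. Black marks give the mean and SD of each group of 2 or 3 arrays, and each panel has its own scale. The irg-5 and his-24 points are higher in F5, the col-19, perm-2, vit-6, msp-50 and fat-7 points are lower in F5, and wdr-5.1 lies between 8.37 and 8.78 in both.

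Cuticle collagen transcripts held most of the largest falls. Among the 12 largest falls, 8 were collagens: col-139, col-120, col-129, col-81, col-19, col-122, col-60 and col-181. The best known is col-19, a collagen of the adult cuticle that is switched on when larvae become adults. Its level was 7.19, 6.09, 5.69, 6.49 and 6.37 in F5, against 9.92, 9.72, 8.83, 8.70, 8.604 and 8.96 in F4. The lowest F4 array was more than 1 log2 unit above the highest F5 array, and the difference was -2.69 ± 0.21 (6.46-fold lower, adjusted p = 1.1e-06, limma). Within the arrays, col-19 stood between the 55th and 73rd percentile of probe sets in F5 and between the 88th and 96th in F4.

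That set was chosen for 1 sign on both birth days, so by that rule its 8 collagens were lower in F5 on each. Among them col-120 was the one whose change differed between the days (interaction adjusted p = 0.022, limma). Its difference was -3.48 on birth day 1 and -2.21 on birth day 2. The level of col-129 was 8.88, 8.49, 8.57, 8.73 and 9.39 in F5, against 11.68, 11.50, 11.102, 11.47, 11.65 and 11.83 in F4. The groups did not overlap, and the difference was -2.75 ± 0.14 (adjusted p = 1.2e-08, limma). The level of col-139 was 7.96, 7.63, 7.81, 7.62 and 8.33 in F5, against 11.04, 10.90, 10.29, 10.42, 10.5003 and 10.84 in F4. Its difference was -2.79 ± 0.15, which is 6.94-fold lower in F5 (adjusted p = 1.8e-08, limma).

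Of the cuticle collagens measured, 37 fell (32.7%, against 8.08% of all genes), 24 rose (21.2%, against 16.8%) and 52 did not pass the test. Their median difference was -0.06, and the share that rose was near that of all genes. In 35 of the collagens every F5 array lay below every F4 array on both birth days, against 5.47% of all genes. In 14 every F5 array lay above, against 11.1% of all genes. The falls were not spread evenly: 13 collagens differed by -2.79 to -2.04 on the log2 scale, and the next, col-20, by -1.45. Across those 13 genes the F5 arrays stood at percentiles 45.9 to 94.1 and the F4 arrays at percentiles 88.4 to 99.1 of all probe sets. The collagens that rose included dpy-2, dpy-7, dpy-8, dpy-9, dpy-10 and rol-6, which shape the furrows and body form of the cuticle, at differences of 0.38 for rol-6 to 0.56 for dpy-2. The highest was col-90, at 0.98 (these risers were chosen after their values were seen). Under the other scales tried, 16 to 19 collagens rose and 40 to 45 fell.

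**Figure D2:**
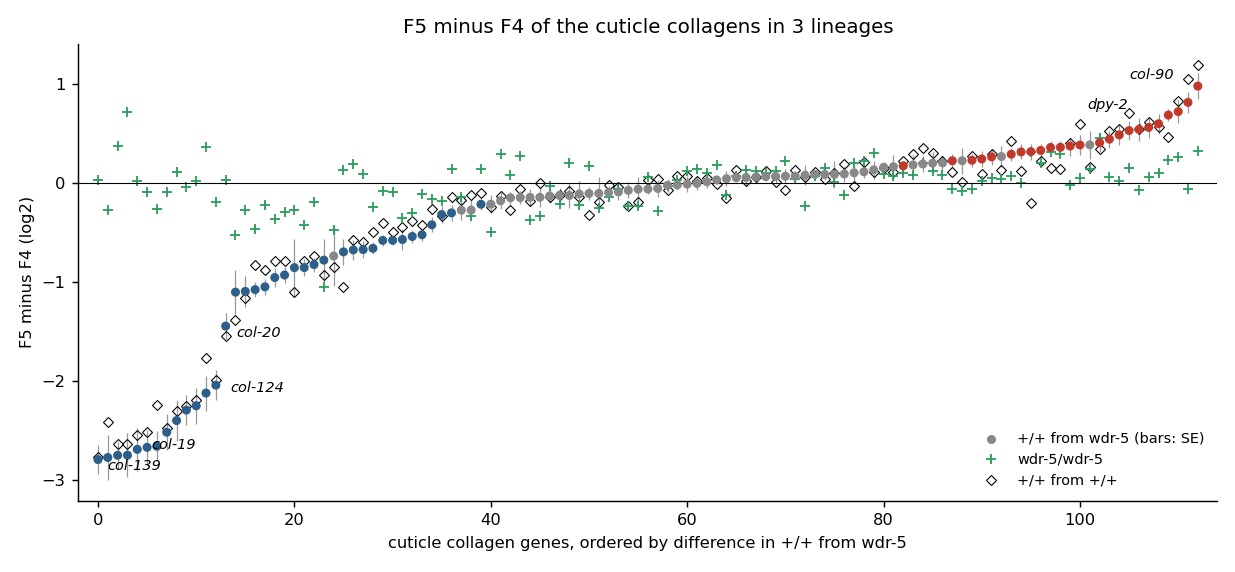
F5 minus F4 difference (log2) of each measured cuticle collagen gene, ordered by their difference in +/+ from wdr-5. Filled points are +/+ from wdr-5 with SE bars (blue fell, red rose, grey did not pass the test), plus signs are wdr-5/wdr-5 and open diamonds +/+ from +/+. The 13 lowest genes lie between -2.79 and -2.04 in +/+ from wdr-5, between -0.28 and 0.72 in wdr-5/wdr-5, and between -2.77 and -1.77 in +/+ from +/+, all averaged over both birth days.

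The remaining largest falls were in genes with no given name. F54F7.3 had a level of 3.98, 3.93, 4.34, 4.74 and 4.64 in F5, against 7.96, 7.90, 7.44, 7.24, 6.73 and 7.14 in F4. It fell by 3.06 on the log2 scale (SE 0.21, adjusted p = 2.2e-07, limma), and 2 of its F5 arrays were below the 25th percentile of all probe sets. F53H4.2 fell by 3.05 (SE 0.34), with 4 F5 arrays below it. For both, the F5 level lay near the floor of the array, so the size of the fall is less certain than that of the collagens. Y45F10C.4 fell by 2.62 (SE 0.11) and D1054.10 fell by 2.43 (SE 0.25).

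Yolk protein transcripts were lower in F5. Of the 6 vitellogenins, 5 fell, and the median difference was -1.80 beside 0.06 over all genes. The level of vit-6 was 8.82, 8.16, 7.27, 9.05 and 8.54 in F5, against 11.11, 10.79, 10.36, 10.32, 10.48 and 10.996 in F4. All F5 arrays were lower, at a difference of -2.29 ± 0.25 (4.89-fold lower, adjusted p = 2.0e-05, limma). The level of vit-2 was 7.72, 6.51, 5.95, 8.01 and 7.15 in F5, against 9.86, 9.01, 9.26, 8.49, 8.57 and 8.99 in F4. Its F5 arrays spread over more than 2 log2 units but stayed below F4, at -1.92 ± 0.30 (adjusted p = 0.00043, limma).

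The other yolk genes varied more between arrays. The difference of vit-5 was -1.96 ± 0.46 (adjusted p = 0.0066, limma) and that of vit-4 was -1.68 ± 0.41 (adjusted p = 0.0077, limma). On birth day 2 the groups overlapped for both: F5 replicate 5, at 9.64 for vit-5 and 9.73 for vit-4, lay above the lowest F4 array. With robust variance estimates the adjusted p was 0.051 for vit-5 and 0.055 for vit-4, just over the threshold. The near-identical copies among vit-3, vit-4 and vit-5 may share probes, so their values are not independent. The member that did not pass was vit-1, at -0.63 (adjusted p = 0.16, limma). Averaged over the 6 genes, the level was 7.98 to 8.68 in F5 and 9.92 to 10.8 in F4 on birth day 1, and 6.76 to 9.12 in F5 and 9.004 to 10.1 in F4 on birth day 2.

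Genes of oocytes and the eggshell fell almost throughout. Of 25 measured, 23 fell (92%, against 8.08% of all genes) and none rose, with a median difference of -0.94. In all 23, every F5 array lay below every F4 array on both birth days, against 5.47% of all genes. The mean level of the list was 6.72 to 6.92 in F5 and 7.70 to 8.49 in F4 on birth day 1, and 6.93 to 7.14 in F5 and 7.87 to 8.04 in F4 on birth day 2. The exceptions were cav-1, at -0.30 (adjusted p = 0.29, limma), and lin-41, at -0.08 (adjusted p = 0.53, limma), both named after their values were seen.

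The largest of these falls were in eggshell genes. The level of perm-2, needed for the permeability barrier of the embryo, was 7.03, 6.84, 6.26, 6.89 and 6.67 in F5, against 9.37, 9.18, 8.51, 8.50, 8.42 and 8.80 in F4. The groups were separated by more than 1 log2 unit, and the difference was -2.02 ± 0.14 (adjusted p = 3.3e-07, limma). Its partner perm-4 fell by 1.85 (SE 0.13). The eggshell proteoglycan genes cpg-2 and cpg-1 fell by 1.61 (SE 0.14) and by 1.29 (SE 0.11).

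Most sperm genes fell as well. Of 29 measured, 23 fell (79.3%, against 8.08% of all genes) and none rose, with a median difference of -0.52. Major sperm proteins, the cytoskeletal proteins that drive crawling of worm sperm, were among them. The level of msp-50 was 9.04, 9.08, 9.81, 9.25 and 8.95 in F5, against 10.33, 10.53, 10.25, 10.79, 10.27 and 10.58 in F4. All F5 arrays were lower, at -1.25 ± 0.13 (adjusted p = 1.0e-05, limma). msp-63 fell by 0.99 (SE 0.10), msp-77 by 0.93 (SE 0.10) and msp-76 by 0.89 (SE 0.11). These genes belong to a large family of near-identical copies, and a probe set may read several of them.

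The list median of the sperm genes was lower on birth day 1. On birth day 1 the list median was -0.86, and on birth day 2 it was -0.28. For 15 of the 29 genes the change itself differed between the days (adjusted p under 0.05, limma interaction, against 12.2% of all probe sets). For oocyte and eggshell genes the medians were -1.33 and -0.76, and 2 of 25 differed between the days. Of 13 transcripts specific to males measured, 3 rose (23.1%, against 16.8% of all genes) and none fell, with a median of 0.07. Most of the male transcripts were below the 25th percentile of the array, including cwp-2, whose 11 arrays were all there, and its call was lost without F5 replicate 1 or F5 replicate 2.

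Of 29 general germ line genes, 11 fell (37.9%, against 8.08% of all genes) and none rose, with a median of -0.16. The P granule genes glh-2 and pgl-3 fell by 0.49 (SE 0.08) and by 0.48 (SE 0.09), and pgl-1 fell by 0.37 (SE 0.07). The translational regulator gene cpb-3 fell by 0.51 (SE 0.09). Of 22 genes of meiosis and the cell cycle, 11 fell (50%) and 1 rose (4.55%), with a median of -0.22. The fallers included B-type cyclins, with cyb-2.2 at -1.16 ± 0.16 (adjusted p = 0.00015, limma), cyb-1 at -0.58 ± 0.08 and cyb-3 at -0.34 ± 0.08. The ribonucleotide reductase gene rnr-2 fell by 0.38 (SE 0.07), and the riser was cdk-2, at 0.32.

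**Figure D3:**
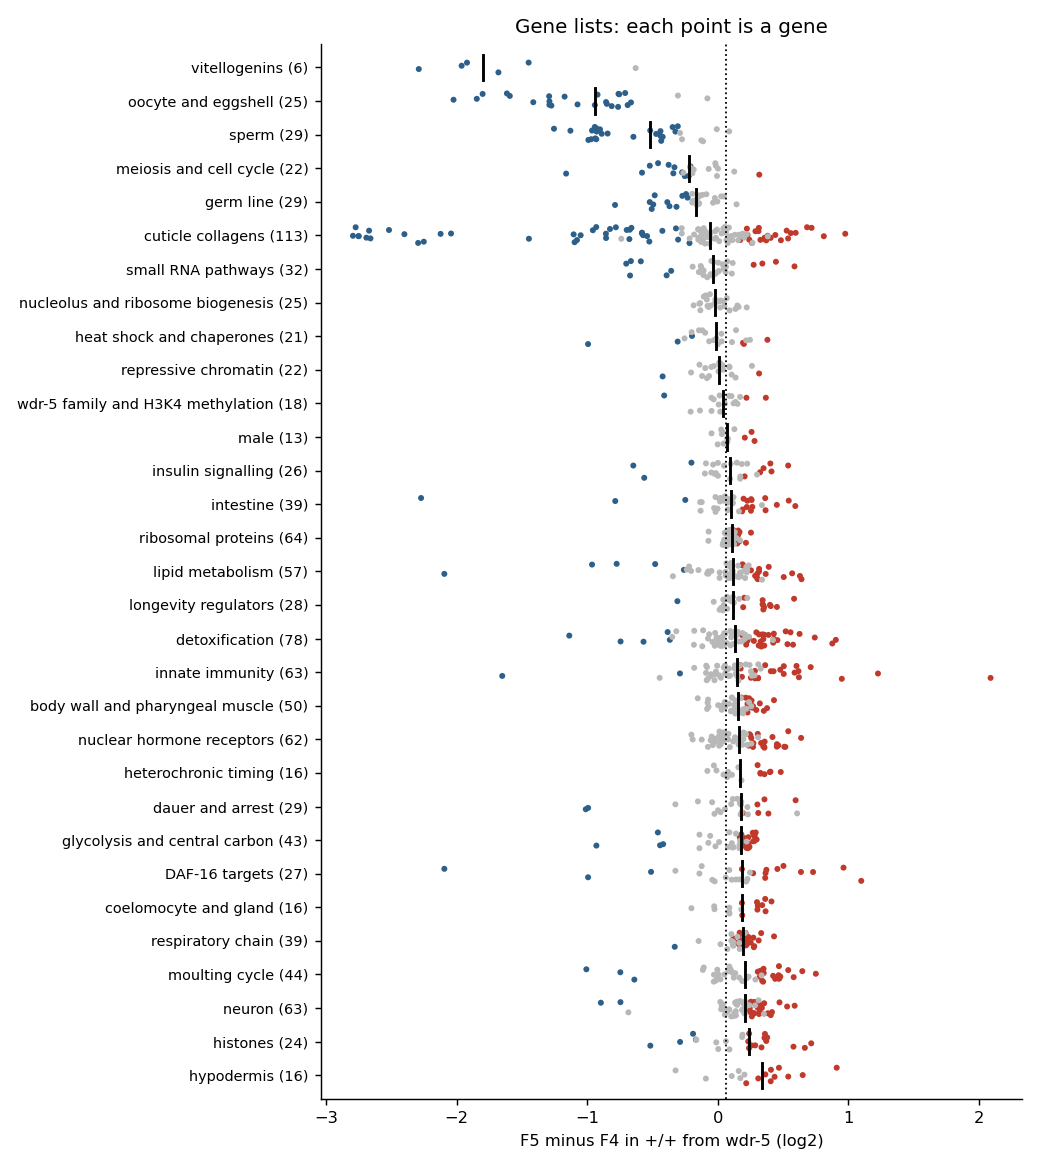
F5 minus F4 difference (log2) of each measured gene of 31 gene lists in +/+ from wdr-5, with the number of genes in brackets. Red points rose, blue points fell, grey points did not pass the test, black bars are list medians and the dotted line is the median over all genes (0.06). Vitellogenins, oocyte and eggshell genes and sperm genes have the lowest medians (-1.80, -0.94 and -0.52), and hypodermis genes the highest (0.34). The hypodermal collagen gene col-19 is shown with the cuticle collagens and not with the hypodermis genes.

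Argonautes and histones split into rising and falling members. Of 32 genes of small RNA pathways, 4 rose (12.5%, against 16.8% of all genes) and 6 fell (18.8%, against 8.08%), with a median of -0.04. The level of csr-1, a germ line Argonaute gene, was 7.13, 6.96, 7.18, 6.87 and 7.31 in F5, against 7.76, 7.53, 7.34, 7.999, 7.81 and 7.98 in F4. It fell on both days, at -0.67 ± 0.10 (adjusted p = 0.00029, limma). The sperm Argonaute gene alg-4 fell by 0.67 (SE 0.12) and the Piwi gene prg-2 by 0.39 (SE 0.06). In the other direction nrde-3, which carries small RNAs into nuclei of somatic cells, rose by 0.59 ± 0.07 (adjusted p = 7.3e-05, limma). The microRNA Argonaute genes alg-1 and alg-2 rose by 0.28 and 0.45 (chosen after their values were seen).

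Of 24 histone genes, 13 rose (54.2%, against 16.8% of all genes) and 4 fell (16.7%, against 8.08%), with a median of 0.24. The linker histone gene his-24 had a level of 9.14, 9.05, 8.96, 9.12 and 9.05 in F5, against 8.56, 8.44, 8.56, 8.21, 8.40 and 8.30 in F4. The F5 arrays were higher by 0.67 ± 0.06 (adjusted p = 6.5e-06, limma). The histone H2B gene his-4 rose by 0.72 ± 0.08 and the histone H3.3 gene his-71 by 0.58 ± 0.10, while the related his-70 fell by 0.52 (SE 0.10). Core histone genes have many near-identical copies, and their probe sets may not tell them apart. Under the other scales 5 to 11 histone genes rose and 4 fell. Of 22 genes of repressive chromatin, 4.55% passed in each direction, against 16.8% of all genes that rose and 8.08% that fell: 1 rose (hpl-1, a heterochromatin protein gene, at 0.32 ± 0.08) and 1 fell (dpl-1, at -0.42 ± 0.12), with a median of 0.01. The call of dpl-1 was lost without F5 replicate 1 (adjusted p = 0.057, limma) and without F5 replicate 2 (adjusted p = 0.068, limma).

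Among genes of the hypodermis and of the moulting cycle more passed as risers than as fallers. Of 16 hypodermis genes, 10 rose (62.5%, against 16.8% of all genes) and none fell, with a median of 0.34. The hypodermal collagen gene col-19 was not in this list but was counted with the cuticle collagens. It fell, by -2.85 on birth day 1 and -2.57 on birth day 2, so the absence of fallers holds only for the list without it. The level of semo-1 was 8.92, 9.08, 8.75, 8.91 and 8.93 in F5, against 8.16, 8.16, 8.55, 8.12, 7.71 and 7.55 in F4. All F5 arrays were higher, at 0.91 ± 0.11 (adjusted p = 5.1e-05, limma). The tyrosinase gene tyr-4 rose by 0.65 ± 0.08, the hypodermal GATA factor gene elt-3 by 0.41 ± 0.06 and wrt-10 by 0.47 ± 0.09. The count was 9 of 16 under the other scales tried.

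Of 44 genes of the moulting cycle, 18 rose (40.9%), 3 fell (6.82%) and 23 did not pass, with a median of 0.21. Their mean level was 7.92 to 7.93 in F5 and 7.57 to 7.65 in F4 on birth day 1, and the groups overlapped on birth day 2, at 7.83 to 7.97 in F5 and 7.81 to 7.89 in F4. The moulting regulator gene myrf-1 had a level of 7.52, 7.76, 7.23, 7.07 and 7.65 in F5, against 6.39, 6.56, 6.56, 6.95, 6.82 and 6.86 in F4. It rose by 0.75 ± 0.13 (adjusted p = 0.00088, limma), by more on birth day 1 than on birth day 2 (1.14 and 0.44). The 3 that fell were hedgehog-related genes of the warthog family: wrt-8 by 1.01 (SE 0.14), wrt-4 by 0.75 (SE 0.07) and wrt-6 by 0.64. Their relative grd-10 rose by 0.58 ± 0.10.

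Heterochronic genes, which time larval stages, included 7 risers among 16 (43.8%, against 16.8% of all genes) and no faller, with a median of 0.17. The level of lin-29, the factor that switches on adult hypodermal genes such as col-19, was 7.16, 7.18, 6.51, 6.72 and 6.52 in F5, against 6.75, 6.96, 6.89, 6.23, 6.23 and 6.26 in F4. It was higher in F5 on both days, at 0.33 ± 0.07 (adjusted p = 0.0037, limma), while col-19 was lower. Also higher were lin-46 at 0.48 ± 0.10, dre-1 at 0.40 ± 0.08 and the steroid receptor gene daf-12 at 0.36 ± 0.08. The lin-46 level was below the 25th percentile of the array on 5 of 6 F4 arrays.

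The largest rise was that of irg-5, a gene of the response to infection. It had a level of 6.87, 7.05, 6.75, 6.80 and 6.95 in F5, against 5.32, 4.62, 4.89, 4.65, 4.61 and 4.79 in F4. The groups were more than 1 log2 unit apart, and the difference was 2.09 ± 0.11 (4.26-fold, adjusted p = 1.8e-08, limma). Its relative irg-4 had a level of 7.97, 8.41, 8.25, 8.38 and 8.54 in F5, against 6.72, 7.25, 7.22, 6.80, 7.29 and 7.15 in F4. The rise of irg-4 was 1.23 ± 0.12 (adjusted p = 8.2e-06, limma). Of 63 innate immunity genes, 22 rose (34.9%, against 16.8% of all genes) and 2 fell (3.17%, against 8.08%), with a median of 0.15, and 15 to 18 rose under the other scales. The strongest exception was clec-87, a C-type lectin gene, which fell by 1.65 (SE 0.15).

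The other large rises were in genes of varied or unknown function. sysm-1 rose by 1.88 ± 0.22 (adjusted p = 3.2e-05, limma), with 7.53, 6.89, 6.40, 5.96 and 6.04 in F5, against 4.87, 4.45, 4.35, 4.87, 4.86 and 4.85 in F4. Its F4 arrays were nearly flat, and its F5 arrays were higher on birth day 1 than on birth day 2. The acyltransferase gene oac-29 rose by 1.79 ± 0.12 and the myo-inositol transporter gene hmit-1.1 by 1.30 ± 0.10. Y71G12B.18 rose by 1.46 ± 0.16, C01G10.5 by 1.40 ± 0.22, Y48E1B.8 by 1.27 ± 0.08, sdz-24 by 1.19 ± 0.13 and F01D5.1 by 1.16 ± 0.11. gtnt-18 rose by 1.24 ± 0.17, with 5 of 6 F4 arrays below the 25th percentile. In 11 of the 12 largest rises the groups did not overlap on either birth day; the exception was C50F7.5.

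Of 78 detoxification genes, 28 rose (35.9%, against 16.8% of all genes) and 5 fell (6.41%, against 8.08%), with a median of 0.13, and 17 to 22 rose under the other scales. The cytochrome P450 gene cyp-35C1 had a level of 6.54, 6.55, 6.30, 6.83 and 6.92 in F5, against 5.75, 5.72, 5.82, 5.72, 5.74 and 5.72 in F4. It rose by 0.88 ± 0.10 (adjusted p = 3.2e-05, limma). The glutathione transferase genes gst-20, gst-38 and gst-42 rose by 0.74 ± 0.09, 0.63 ± 0.08 and 0.52 ± 0.07. Of 21 heat shock and chaperone genes, 3 rose (14.3%, against 16.8% of all genes) and 3 fell (14.3%, against 8.08%), with a median of -0.01. Under the other scales 1 to 2 rose and 2 to 6 fell. The small heat shock protein gene sip-1 fell by 0.99 (SE 0.17) and the endoplasmic reticulum chaperone gene hsp-4 by 0.31 (SE 0.06), while hsp-12.1 and hsp-3 rose by 0.38 ± 0.08 and 0.20 ± 0.05. The hsp-3 call was lost when arrays were quantile normalized within birth days (adjusted p = 0.068, limma).

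Fat metabolism held a large fall among small rises. Of 57 lipid genes, 15 rose (26.3%, against 16.8% of all genes) and 5 fell (8.77%, against 8.08%), with a median of 0.12, and under the other scales 8 to 12 rose and 6 fell. The level of fat-7, a stearoyl-CoA desaturase gene that also responds to insulin signalling, was 8.63, 8.71, 7.63, 8.09 and 8.08 in F5, against 9.92, 10.06, 10.09, 10.61, 10.57 and 10.68 in F4. All F5 arrays were lower by at least 1 log2 unit, and the difference was -2.09 ± 0.19 (4.27-fold lower, adjusted p = 3.5e-06, limma). The fall was larger on birth day 2 (-2.69) than on birth day 1 (-1.35, interaction adjusted p = 0.0003, limma). Rises were seen for the lysosomal lipase gene lipl-5 at 0.57 ± 0.06, the fatty acid binding gene far-7 at 0.64 ± 0.09 and the enoyl-CoA hydratase gene ech-6 at 0.29 ± 0.04.

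Rises among genes of energy metabolism and translation were small and rested on the scale. Of 39 respiratory chain genes, 26 rose (66.7%, against 16.8% of all genes) and 1 fell (2.56%, against 8.08%), with a median of 0.19. Of 43 genes of glycolysis and central carbon metabolism, 23 rose (53.5%) and 4 fell (9.3%), with a median of 0.18. Of 64 ribosomal protein genes, 17 rose (26.6%) and none fell, with a median of 0.11. Under the other scales the risers numbered 2 to 16 for the respiratory chain, 4 to 15 for central carbon and 1 to 2 for ribosomal proteins. The respiratory chain risers included ucr-2.2 at 0.43 ± 0.06, gas-1 at 0.31 ± 0.05 and nuo-4 at 0.33 ± 0.07, while ucr-2.3 fell by 0.33 (SE 0.06).

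Central carbon genes held larger falls than rises. The glyceraldehyde-3-phosphate dehydrogenase gene gpd-4 had a level of 8.35, 8.19, 8.55, 8.65 and 8.02 in F5, against 9.49, 9.43, 9.31, 9.14, 9.16 and 9.21 in F4. It fell by 0.93 (SE 0.11, adjusted p = 3.0e-05, limma), and the aconitase gene aco-2 fell by 0.44 (SE 0.06). Rises of pck-2 and mdh-1 were 0.30 ± 0.05 and 0.28 ± 0.05. Among ribosomal proteins rpl-11.2 rose by 0.25 ± 0.05, and of the other 3 named by the rule, rps-6, rpl-6 and rps-5, none exceeded 0.17. The calls of rpl-6 and rps-5 were lost without F5 replicate 1, at adjusted p of 0.057 and 0.059 (limma), and that of rps-5 also without F5 replicate 2, at 0.052. Of 25 genes of the nucleolus and ribosome biogenesis none passed the test in either direction on the deposited scale, with a median of -0.02, and under the other scales none rose and 0 to 4 fell.

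Of 26 insulin pathway genes, 6 rose (23.1%, against 16.8% of all genes) and 3 fell (11.5%, against 8.08%), shares near those of all genes, with a median of 0.10. The insulin-like peptide gene ins-33 had a level of 7.61, 7.24, 6.90, 6.68 and 6.80 in F5, against 6.37, 6.58, 6.51, 6.57, 6.56 and 6.59 in F4. All F5 arrays were higher, by more on birth day 1, and the difference was 0.54 ± 0.12 (adjusted p = 0.0048, limma). The related ins-6 and ins-22 rose by 0.35 ± 0.08 and 0.32 ± 0.07. Neither daf-16, at -0.09, nor the receptor gene daf-2, at 0.00, passed the test (both named after their values were seen).

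Of 27 DAF-16 targets, 11 rose (40.7%, against 16.8% of all genes) and 3 fell (11.1%, against 8.08%), with a median of 0.19. Under the other scales 9 of these targets rose and 4 to 5 fell. The values that follow are on the deposited scale. The median was 0.33 on birth day 1 and 0.05 on birth day 2, when the list means overlapped (7.24 to 7.30 in F5, 7.25 to 7.29 in F4). For 12 of the 27 the change differed between the days (limma interaction, against 12.2% of all probe sets). The risers included dod-24 at 0.96 ± 0.14, dod-19 at 0.64 ± 0.09 and the catalase gene ctl-2 at 0.37 ± 0.06, and the strongest fall was that of fat-7. Of 29 dauer and arrest genes, 6 rose (20.7%) and 2 fell (6.9%), shares near those of all genes, with a median of 0.17, and under the other scales 3 to 4 rose and 2 to 4 fell. Among them the steroid synthesis gene daf-9 rose by 0.60 ± 0.08 and the factor gene daf-19 by 0.39 ± 0.08, while dao-4 fell by 1.01 (SE 0.10). Of 28 longevity regulators, 11 rose (39.3%, against 16.8% of all genes) and 1 fell (hcf-1, 3.57% against 8.08%), with a median of 0.12. Under the other scales 7 to 10 of the regulators rose and 1 fell. The transcription factor gene pqm-1 rose by 0.58 ± 0.11, the kinase gene jnk-1 by 0.45 ± 0.09 and the beta-catenin gene bar-1 by 0.40 ± 0.09.

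Among markers of differentiated tissues other than the germ line, more passed as risers than as fallers on the deposited scale, as over all genes. Of 50 muscle genes, 16 rose (32%, against 16.8% of all genes) and none fell, with a median of 0.15. Of 63 neuron genes, 26 rose (41.3%) and 2 fell (3.17%, against 8.08% of all genes), with a median of 0.21. Of 39 intestine genes, 14 rose (35.9%, against 16.8% of all genes) and 3 fell (7.69%, against 8.08%), with a median of 0.10. Of 16 coelomocyte and gland genes, 9 rose (56.2%) and none fell, with a median of 0.19. Of 62 nuclear hormone receptors, 21 rose (33.9%) and none fell, with a median of 0.17. Under the other scales the risers numbered 4 to 12 for muscle, 8 to 21 for neurons, 5 to 9 for intestine (beside 6 fallers under each), 3 to 7 for coelomocytes and glands, and 10 to 14 for nuclear hormone receptors. Fallers under those scales numbered 0 to 1 for muscle and for coelomocytes and glands, 1 for nuclear hormone receptors and 2 for neurons.

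In each tissue a few genes moved by more than the median. In muscle, the troponin genes tni-1 and mup-2 rose by 0.43 ± 0.06 and 0.24 ± 0.05, the tropomyosin gene lev-11 by 0.26 ± 0.06 and the potassium channel gene twk-18 by 0.38 ± 0.07. In neurons, the neuropeptide genes nlp-11, nlp-8 and nlp-18 rose by 0.59 ± 0.08, 0.53 ± 0.09 and 0.42 ± 0.08, and both fallers make octopamine or its precursor. These were tdc-1, the tyrosine decarboxylase gene, which fell by 0.75 (SE 0.12), and tbh-1, which fell by 0.90 and was named after its level had been looked at. These genes are also known from cells of the gonad.

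The intestinal aspartyl protease gene asp-12 had a level of 7.96, 8.27, 8.42, 8.197 and 8.57 in F5, against 10.71, 10.82, 10.95, 10.48, 10.002 and 10.48 in F4. It fell by 2.27 (SE 0.14, adjusted p = 9.2e-08, limma), and asp-8 fell by 0.79 (SE 0.13). The intermediate filament gene ifc-2 rose by 0.45 ± 0.07 and dod-6 by 0.36 ± 0.07. In glands and coelomocytes unc-122 rose by 0.41 ± 0.10, lgc-26 by 0.37 ± 0.08 and phat-2 by 0.31 ± 0.07. Among nuclear hormone receptors nhr-14 rose by 0.64 ± 0.09, nhr-91 by 0.52 ± 0.09, nhr-31 by 0.45 ± 0.07 and nhr-8 by 0.45 ± 0.08.

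More probe sets passed the test on birth day 1 than on birth day 2. On birth day 1, 5993 probe sets (28.8%) were higher and 2159 (10.4%) lower in F5. On birth day 2, 1184 (5.69%) were higher and 710 (3.41%) lower. The change itself differed between the days for 2538 probe sets (12.2%), of which 881 were higher on day 2 and 1657 lower (limma interaction). Of the 5253 probe sets called over both days, 5238 (99.7%) had the same sign on each day, against 64.9% of all probe sets. A call over both days itself favours a shared sign, so the 99.7% is no measure of how well the days agreed. Without F5 replicate 2 the count that differed between the days was 1136, without F5 replicate 4 it was 1440, and without F4 replicate 5 it was 1528. The 77 control probe sets of the array moved with the day as well (median 0.14 on birth day 1, -0.13 on birth day 2), and their part in the result was not tested.

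**Figure D4:**
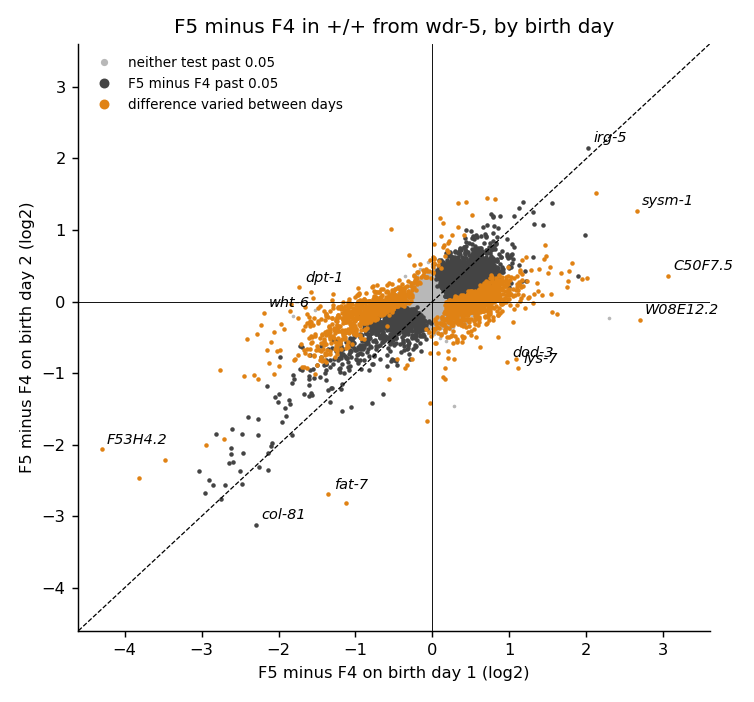
F5 minus F4 difference (log2) of each gene on birth day 1 (x axis) and birth day 2 (y axis) in +/+ from wdr-5. Orange points differed between the days (adjusted p under 0.05), dark points passed only the test over both days, and the dashed line marks equal differences. irg-5 lies near the line (2.02 and 2.15), while C50F7.5 (3.06 and 0.36), W08E12.2 (2.69 and -0.25) and lys-7 (1.11 and -0.93) lie far below it.

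Some genes changed on 1 day alone or in opposite directions. The level of lys-7, a lysozyme gene of immune defence, was 9.80 and 9.44 in F5 against 8.86, 8.17 and 8.48 in F4 on birth day 1. On birth day 2 it was 8.59, 8.32 and 8.51 in F5 against 9.69, 9.20 and 9.33 in F4. F5 was above F4 on the first day and below it on the second, with an interaction of -2.05 (adjusted p = 0.00025, limma). dod-3, a gene downstream of DAF-16, differed by 0.97 and -0.85 on the 2 days, and mbug-1 by 1.09 and -0.81. Over both days none of the 3 passed the test, with differences of -0.02 for lys-7, -0.04 for dod-3 and 0.03 for mbug-1.

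Other genes changed mainly on birth day 1. C50F7.5 had a level of 9.19 and 8.82 in F5 against 5.86, 6.03 and 5.95 in F4 on birth day 1. On birth day 2 it was 8.43, 7.65 and 8.13 in F5 against 7.86, 7.63 and 7.63 in F4, where the groups overlapped. W08E12.2 differed by 2.69 on birth day 1 and by -0.25 on birth day 2. Downward, the transporter gene wht-6 differed by -2.19 and -0.16, the chitinase gene cht-3 by -2.23 and -0.33, K07A1.6 by -2.41 and -0.52, and dpt-1 by -1.73 and 0.20. F53H4.2 was lower on both days, at -4.30 and -2.06.

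The same generations were also collected for animals with no mutant ancestor, and the comparison asks whether the change differed with mutant ancestry. In +/+ from +/+, 3698 probe sets (17.8%) were higher and 1649 (7.93%) lower in F5 than in F4 (limma on 12 arrays). Across probe sets the differences of +/+ from wdr-5 and +/+ from +/+ correlated at r = 0.920, a description with no test, and the lineages share no array but share birth days and harvests. The probe sets called in both with the same sign numbered 3719, which is 70.8% of the calls in +/+ from wdr-5 and 69.6% of those in +/+ from +/+. Of the probe sets that changed by more than 2-fold in +/+ from wdr-5, all had the same sign in +/+ from +/+ and all but 1 were called there.

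Averaged over both birth days, no probe set passed the test of a difference between these lineages. The contrast of F5 minus F4 in +/+ from wdr-5 less that in +/+ from +/+ was called for 0 of 20806 probe sets (0%, limma on 23 arrays, smallest adjusted p 0.999). At an unadjusted p under 0.05 there were 420 (2.02%), and 1004 with a separate mean for each group and birth day. The median 95% interval of the contrast, with no adjustment for the number of probe sets, was ± 0.23 on the log2 scale. After adjustment, differences well above that size could also go uncalled. The strongest contrasts by p-value were K12C11.6 with 0.45 (95% interval 0.25 to 0.66), tyr-4 with 0.43 (0.20 to 0.66) and cpz-1 with -0.30 (-0.48 to -0.13), none past the threshold after adjustment (limma).

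Averaged over both birth days, the difference of col-19 was -2.69 in +/+ from wdr-5 and -2.55 in +/+ from +/+, and that of irg-5 was 2.09 and 1.97. Those of vit-6 were -2.29 and -2.53, of perm-2 -2.02 and -2.004, of fat-7 -2.09 and -2.102, and of asp-12 -2.27 and -2.69. In +/+ from +/+ 23 oocyte and eggshell genes, 15 sperm genes and 6 vitellogenins fell, against 23, 23 and 5 in +/+ from wdr-5; whether the sperm counts differ was not tested, and no sperm gene passed the contrast averaged over the days. The difference of msp-76 was -0.89 in +/+ from wdr-5 and -0.39 in +/+ from +/+, where it did not pass the test (adjusted p = 0.21, limma).

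Behind these averages, the falls differed in size by birth day in +/+ from +/+. The difference of col-19 was -2.85 on birth day 1 and -2.57 on birth day 2 in +/+ from wdr-5, against -1.26 and -3.83 in +/+ from +/+. That of vit-6 was -2.26 and -2.31 in +/+ from wdr-5, against -1.45 and -3.61 in +/+ from +/+, and that of perm-2 was -2.09 and -1.97, against -0.93 and -3.07. The value in +/+ from wdr-5 was the lower on birth day 1 and the higher on birth day 2 for these genes, and on neither day did their contrast between the lineages pass the test. In +/+ from +/+ the change differed between the days for 3186 probe sets (15.3%, limma interaction on 12 arrays).

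Tested on each birth day by itself, a comparison added after the data were seen, the change in +/+ from wdr-5 differed from that in +/+ from +/+ for 172 probe sets (0.827%) on birth day 1, of which 149 were lower. It differed on birth day 2 for 0 (0%), with 1714 (8.24%) at an unadjusted p under 0.05 (limma on 23 arrays). The contrast itself differed between the days for 612 probe sets (2.94%), col-19 among them (adjusted p = 0.033, limma). On birth day 1 the contrast was -1.68 ± 0.23 for dpt-1 (adjusted p = 0.0011, limma), -1.41 ± 0.28 for msp-76 (adjusted p = 0.021, limma) and -0.97 ± 0.20 for msp-63 (adjusted p = 0.026, limma). That of col-19 was -1.58 ± 0.52 (adjusted p = 0.16, limma). The count on birth day 1 was 1 without F5 +/+ from wdr-5 replicate 2 and 802 without F4 +/+ from +/+ replicate 3, and that on birth day 2 was 331 without F4 +/+ from +/+ replicate 5.

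Averaged over both birth days, the large falls were not called in the mutants. In wdr-5/wdr-5, 0.649% of probe sets were higher and 31 (0.149%) lower in F5 than in F4 (limma on 12 arrays). The difference of col-19 was -2.69 ± 0.21 in +/+ from wdr-5 and 0.02 ± 0.71 in wdr-5/wdr-5, that of vit-6 was -2.29 ± 0.25 and -0.17 ± 0.64, and that of perm-2 was -2.02 ± 0.14 and -0.12 ± 0.65. Across the 13 collagens that fell most, the mutant differences ran from -0.28 to 0.72, with standard errors of 0.41 to 0.71. These averages near 0 join opposite signs on the 2 days: the 13 collagens differed by -1.58 to -0.61 on birth day 1 and by 0.66 to 2.18 on birth day 2 in wdr-5/wdr-5, and none was called on either day by itself. For 5 of the 13 the mutant change differed between the days. Of the 12 largest falls none was called in the mutants, and of the 12 largest rises 3 were. irg-5, sysm-1 and F01D5.1 were those, at 0.96 ± 0.17, 2.25 ± 0.28 and 1.23 ± 0.19 in wdr-5/wdr-5, against 2.09, 1.88 and 1.16 in +/+ from wdr-5.

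The arrays of the mutants show both the day and the spread. The level of col-19 was 10.57, 8.46 and 7.55 in F5 against 10.52, 10.48 and 10.21 in F4 of wdr-5/wdr-5 on birth day 1. On birth day 2 it was 9.20, 9.93 and 6.89 in F5 against 6.18, 8.29 and 6.79 in F4. The groups overlapped on both days, with differences of -1.54 ± 0.81 and 1.59 ± 0.81 that did not pass the test. Those of vit-6 were -1.55 and 1.21 and those of perm-2 -1.49 and 1.26, and none of them passed. In wdr-5/wdr-5 4931 probe sets (23.7%) were called on birth day 1, 1338 (6.43%) on birth day 2, and 4725 (22.7%) differed between the days, against 12.2% in +/+ from wdr-5.

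The difference between +/+ from wdr-5 and the mutants was tested as well, a comparison added after the data were seen. Averaged over the days, it was called for 0 of 20806 probe sets (limma on 23 arrays, smallest adjusted p 0.056), and 1909 (9.18%) had an unadjusted p under 0.05. With a separate mean for each group and birth day it was called for 65, with all 35 arrays for 8, without F5 wdr-5/wdr-5 replicate 3 for 26 and without F5 wdr-5/wdr-5 replicate 2 for 22. The nearest named genes were fat-7, at -1.33 ± 0.24 (adjusted p = 0.056, limma), and irg-5, at 1.13 ± 0.22 (adjusted p = 0.078, limma). The contrast of col-19 was -2.71 ± 0.83 (adjusted p = 0.30, limma), which did not pass the test.

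On single days the contrast with the mutants was called for 10 probe sets (0.0481%) on birth day 1 and for 745 (3.58%) on birth day 2, of which 451 were higher and 294 lower (limma on 23 arrays with a mean for each group and birth day). It was called for all 13 of the collagens on birth day 2, at -5.3 to -2.97, with col-19 at -4.16 ± 0.96 (adjusted p = 0.025, limma). The 13 were chosen by their falls in +/+ from wdr-5, values that this contrast reuses. Their choice therefore favours a negative contrast, and their count is no independent support for a difference between the lineages. Also called on that day were fat-7 at -2.03 ± 0.20 (adjusted p = 1.7e-05, limma), irg-5 at 1.51 ± 0.27 (adjusted p = 0.010, limma), vit-6 at -3.53 ± 0.92 (adjusted p = 0.038, limma) and perm-2 at -3.23 ± 0.88 (adjusted p = 0.046, limma). On birth day 1 asp-12 was the one named gene called, at -2.29 ± 0.20, with -2.71 in +/+ from wdr-5 and -0.42 in the mutants. The count on birth day 2 ran from 107 without F5 wdr-5/wdr-5 replicate 5 to 3272 without F5 wdr-5/wdr-5 replicate 6, and the change of this contrast between the days was itself called for 18 probe sets (0.0865%). The fit uses 1 variance for all groups, although the mutant arrays spread more, with a standard error of 0.81 for col-19 on birth day 2 against 0.29 in +/+ from wdr-5.

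**Figure D5:**
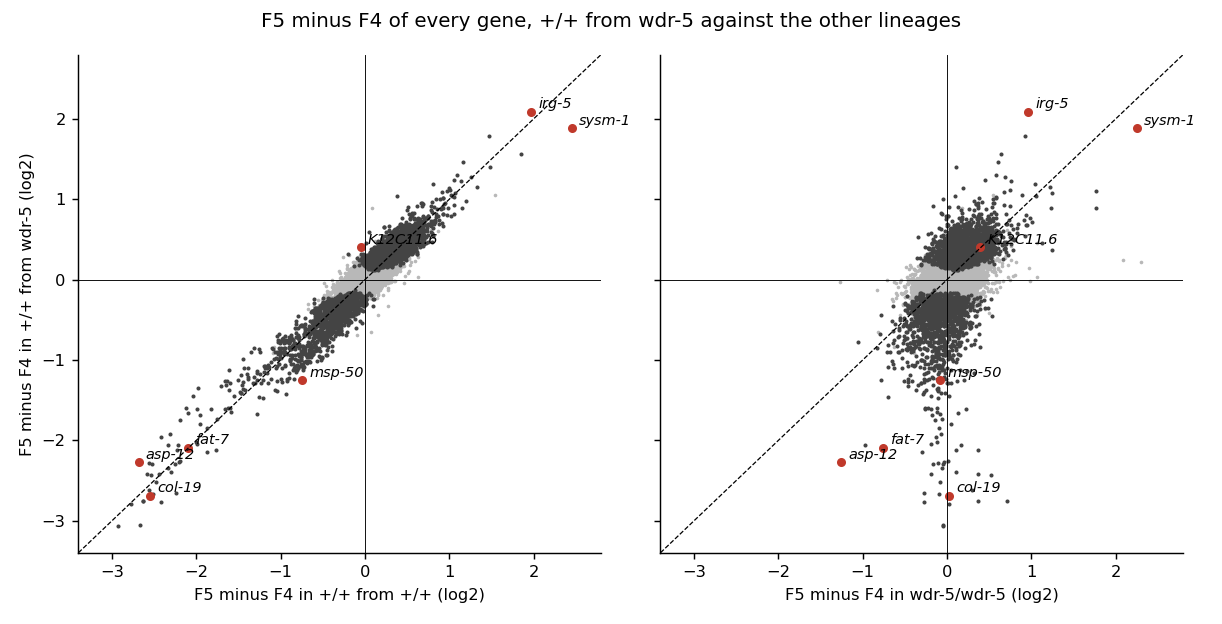
F5 minus F4 difference (log2) of each gene in +/+ from wdr-5 (y axis) against +/+ from +/+ (left) and wdr-5/wdr-5 (right). Dark points passed the test in +/+ from wdr-5, red points are named genes and dashed lines mark equal differences. On the left col-19 (-2.69 and -2.55) and irg-5 (2.09 and 1.97) lie near the line, and on the right col-19 lies at 0.02 and irg-5 at 0.96 in the mutants, where the col-19 value averages -1.54 on birth day 1 and 1.59 on birth day 2.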

How the data were processed

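RNA of whole L3 worms was measured on Affymetrix C. elegans arrays in 35 preparations, of which 11 were compared here. The authors' deposited values are log2 intensities made by RMA, per the submitters' processing notes. Per the file headers they were normalized and put on a log scale, of unstated base and software version. The range of the values is that of base 2. The 5th percentile of an array was 3.04 to 3.23 (birth day 1) or 4.12 to 4.21 (birth day 2), so the days were taken to be normalized separately, and all fits but 1 alternative held a birth day term.

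All 20806 probe sets that are not controls were fitted in limma 3.58.1 (R 4.3.3; lmFit, then eBayes allowing for an intensity trend) as generation plus birth day on the 11 arrays, with 8 residual degrees of freedom. Differences between days came from a fit with a mean for each generation and birth day, and differences between lineages from fits on 23 arrays, averaged over the days or for each day by itself. Tests were two-sided and Benjamini-Hochberg adjusted over all probe sets. Values after ± are standard errors of the fit. RefSeq gene tables named 15504 probe sets by accession and 4660 by symbol; 510 kept the deposited symbol and 132 had none. Probe sets with identical values under several genes (123) named none, and each of 17236 genes was read from the probe set with the highest mean level.

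Genes named are the 12 largest rises and falls with 1 sign on both days, 5 genes each way for the day interaction, the 3 smallest p-values of the lineage contrast, the wdr-5 family and up to 4 members of each of 31 lists. Members and lists were chosen with earlier results of these data known. Some genes that the rule names are not reported here. Members named beyond that rule were chosen after their values were seen. Lists are described by counts and medians, and no list was tested. Replicate numbers were not taken as pairs, since same-numbered F5 and F4 arrays correlated at only -0.12 to 0.37 in their deviations from group means. The fit was tested on simulated data. Sequences were not used here, and the number of arrays limits precision.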

Additional observations from a re-analysis of the deposited data

Results flagged for a closer look

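The F5 minus F4 difference varied between the birth days for 2538 probe sets (limma interaction, adjusted p under 0.05). Among the genes named in the report, the following are differences on birth day 2 less those on birth day 1, on the log2 scale, so that a negative value means a lower difference on birth day 2.

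Fallers whose fall was smaller on birth day 2 had positive values. They were 2.24 for F53H4.2, 2.04 for wht-6, 1.93 for dpt-1 (not called over both days), 1.90 for cht-3, 1.89 for K07A1.6, 1.35 for F54F7.3 and 1.27 for col-120. Smaller values of the same sign were found for sip-1 (1.09), asp-12 (0.79), alg-4 (0.71), dpl-1 (0.70), tdc-1 (0.70) and msp-63 (0.50).

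Risers whose rise was smaller on birth day 2 had negative values, at -2.95 for W08E12.2 (not called over both days), -2.70 for C50F7.5, -1.38 for sysm-1, -0.71 for ins-33, -0.70 for myrf-1, -0.60 for lin-46, -0.59 for oac-29, -0.47 for nhr-91 and -0.46 for cwp-2. lys-7 (-2.05), mbug-1 (-1.90) and dod-3 (-1.82) changed direction between the days. Against the general pattern, fat-7 fell by more on birth day 2 (-1.34), and dod-24 (0.96) and F01D5.1 (0.61) rose by more.

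In 1 of 276 sets of 5 or 6 arrays examined, an array stood apart from the others of its generation. F4 replicate 1 had a level of 7.46 for F01D5.1, 0.25 above the mean of its birth day, and its gap to the next array was 0.637 of the range. For independent values, chance alone gives such a gap in about 1 of 20 sets. Deviations from the mean of a birth day are not independent, so that rate does not apply here.

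On a single birth day, the F5 minus F4 difference of +/+ from wdr-5 departed from that of the other lineages. Against +/+ from +/+ it was called for 172 probe sets on birth day 1, among them oac-29 (1.03), wht-6 (-1.14), dpt-1 (-1.68), F54F7.3 (-1.77), F53H4.2 (-2.42), col-60 (-1.52), msp-63 (-0.972), msp-76 (-1.41) and sip-1 (-1.0), given as log2 differences of +/+ from wdr-5 less those of +/+ from +/+. Against wdr-5/wdr-5 it was called for 10 probe sets on birth day 1, with asp-12 at -2.29, and for 745 on birth day 2.

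Against the mutants on birth day 2 the collagens were lower: col-81 (-5.3), col-129 (-4.32), col-139 (-4.25), col-19 (-4.16), col-122 (-3.82), col-181 (-3.77), col-120 (-3.23) and col-60 (-3.02). They were named for their falls in +/+ from wdr-5, values that this contrast reuses. Also lower were D1054.10 (-4.58), F54F7.3 (-4.29), Y45F10C.4 (-4.16), F53H4.2 (-3.84), vit-6 (-3.53), perm-2 (-3.23), cyb-2.2 (-2.54), fat-7 (-2.03), cpg-1 (-1.92), wrt-8 (-1.33), cyb-1 (-1.06), cpb-3 (-0.996), csr-1 (-0.925) and his-70 (-0.766). Higher were hmit-1.1 (1.82), semo-1 (1.75), irg-5 (1.51), dod-24 (1.37), his-24 (1.17), pqm-1 (0.856), hsp-3 (0.809), tyr-4 (0.783), ctl-2 (0.722), nhr-14 (0.697), nhr-91 (0.687), wrt-10 (0.636), ech-6 (0.466) and pck-2 (0.430).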

How the results depend on the processing

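No named gene that passed the test changed direction under any alternative tried. Over the settings that were not added after the data were seen, 3389 pairs of a gene and a setting were counted as unchanged. Of the others 31 gained a call and the rest lost one. A gene not called in the main fit whose sign changed was counted as unchanged, whether or not it then passed the test. For probe sets higher in F5 (3646) the count was 900 without a birth day term, 5547 with a mean for each generation and birth day, 1184 on birth day 2 alone, 2389 with median centring and 1664 with centring on chemoreceptor genes (the last 2 added after the data were seen). For probe sets lower in F5 (1607) it was 616 without a birth day term and 732 on birth day 2 alone. With replicate number as a block the counts were 2079 higher and 1066 lower, and the numbers did not pair the samples: F5 replicates 2 and 4 correlated best with the F4 array of their own number, and 1, 5 and 6 did not. With all 35 arrays 1454 probe sets differed between the days (2538) and 684 passed on birth day 2 (1894). The contrast with the mutants was called for 65 probe sets with a mean for each group and birth day and for 8 with all 35 arrays, in place of 0.

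Leaving out each array in turn gave 2086 to 3677 probe sets higher and 1100 to 1727 lower, with the low counts without F5 replicate 1 (2320 higher without F5 replicate 2). It gave 1136 to 3191 that differed between the days, 5061 to 8419 on birth day 1 (fewest without F5 replicate 2) and 1191 to 1529 on birth day 2 (1191 without F4 replicate 6 and 1221 without F5 replicate 5). It gave 0 to 26 for the contrast with the mutants and 0 to 0 for that with +/+ from +/+. For single birth days, the contrast with +/+ from +/+ on birth day 1 (172) was called for 6 with all 35 arrays and 5 with the arrays of that day alone, and 1 to 802 leaving out each array; on birth day 2 (0) it was called for 4 with the arrays of that day alone and for 0 to 331 leaving out each array. That with the mutants on birth day 1 (10) was called for 4 with the arrays of that day alone and for 5 to 15 leaving out each array; on birth day 2 (745) it was called for 1861 with all 35 arrays, 454 with the arrays of that day alone and 107 to 3272 leaving out each array. Birth day 1 had only 2 F5 arrays, generation and harvest cannot be told apart, and genes below the 25th percentile of the array have uncertain fold changes.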

Other observations

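The X chromosome held more risers and fewer fallers than the autosomes in +/+ from wdr-5. Of 2338 genes on X, 28.5% rose and 3.42% fell in F5, with a median difference of 0.13. On the autosomes the share of risers was 13.8% on chromosome I, 15.6% on II, 15.8% on III and IV and 14.9% on V, and that of fallers 5.49% on V to 12.8% on IV, with medians of 0.03 to 0.06. The median log2 level of X genes, 5.03, lay between those of V (4.45) and III (6.01). These are counts over genes, which are not independent, and were not tested.

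Gene families named by their symbols were counted as well, beside 16.8% of all genes that rose and 8.08% that fell. Of 254 nhr genes 58 rose (22.8%) and none fell. Of 93 unc genes 35 rose (37.6%) and none fell, and of 64 ugt genes 24 rose (37.5%) and 2 fell (3.12%). Of 25 flp neuropeptide genes 13 rose (52%) and none fell, and of 25 dpy genes 14 rose (56%) and none fell. The mitochondrial ribosome genes of the mrpl family rose in 14 of 39 (35.9%) with none falling. Unlike most families, their median difference was higher on birth day 2 (0.20) than on birth day 1 (0.11). Few genes of the chemoreceptor families rose (8 of 202 srh genes, 2 str genes and 0 of 96 srw genes), and their median differences, 0.05 to 0.06 over both days, were near 0 on birth day 2 (0.0055 for srh and 0.0059 for srw). Their median levels were low on these arrays, at 3.92 for srh, 3.94 for str and 3.83 for srw.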
